A study of Mus musculus with 6 samples.

Results

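The genes that carry cholesterol out of and into cells were followed in cells sorted as retinal vascular endothelial cells (VECs). The mice had or lacked an endothelial deletion of the clock gene Bmal1. The genes were Apoe, Abca1, Abcg1, Lrp1, Scarb1, Nr1h2, Nr1h3 and Srebf2, 8 genes found by their symbols among the 55487 genes of the deposited table. All 8 passed the filter on low counts, at least 10 reads in at least 3 libraries, which left 20459 genes for testing. The control animals were tdTomato FL/+;Pdgf-icreER and the mutants, called Bmal1;CKO, were Bmal1 FL/FL;tdTomato FL/+;Pdgf-icreER, both on a C57BL/6J background. All pups of both groups were given tamoxifen on each day between P0.5 and P2.5, and retinas were taken at P7.5. The Pdgf-icreER transgene drives an inducible Cre and GFP in endothelial cells, tdTomato marks cells in which Cre has acted, and cells positive for both were sorted by flow cytometry. Each group had 3 libraries, and the numbers 1 to 3 (control) and 4 to 6 (Bmal1;CKO) are those of the deposited table.

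APOE is a lipid-binding protein that carries cholesterol between cells and, in neural tissue, is made mainly by glia. ABCA1 loads cholesterol and phospholipid onto lipid-poor apolipoproteins, and ABCG1 exports cholesterol to lipid particles that are already formed. LRP1 takes up APOE-bearing particles by endocytosis, and SCARB1, also called SR-BI, takes cholesterol from high-density lipoprotein. The oxysterol receptors LXRβ and LXRα, encoded by Nr1h2 and Nr1h3, switch on Abca1, Abcg1 and Apoe when sterols accumulate, whereas SREBP2, encoded by Srebf2, switches on cholesterol synthesis and LDL uptake when sterols are scarce. BMAL1 pairs with CLOCK and binds the E-box CACGTG.

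The sequences before the start sites of Abca1 and Apoe, an exporter and its lipid acceptor, are shown because the first held the E-box and the second did not. Both are the 250 bases upstream of the RefSeq start in GRCm38.p6, on the minus strand, and neither overlapped an annotated exon. The Abca1 stretch is chr4:53159896-53160145 and the Apoe stretch chr7:19699189-19699438. Capitals mark the E-box and, downstream of it, a direct repeat that reads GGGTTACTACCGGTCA on the opposite strand.
Abca1: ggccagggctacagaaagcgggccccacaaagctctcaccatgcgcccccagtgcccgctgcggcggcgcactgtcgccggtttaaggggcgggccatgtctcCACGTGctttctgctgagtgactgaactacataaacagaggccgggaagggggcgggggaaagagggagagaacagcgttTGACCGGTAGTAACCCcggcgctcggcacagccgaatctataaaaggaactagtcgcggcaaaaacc
Apoe: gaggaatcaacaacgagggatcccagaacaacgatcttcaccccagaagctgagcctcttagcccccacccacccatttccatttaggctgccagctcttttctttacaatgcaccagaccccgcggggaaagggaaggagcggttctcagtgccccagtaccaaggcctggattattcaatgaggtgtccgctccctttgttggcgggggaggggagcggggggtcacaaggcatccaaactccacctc
The E-box of Abca1 ended 142 bases before the start site, the repeat ended 52 bases before it, and the motifs did not overlap. The repeat was searched on both strands as AGGTCA or GGGTCA on each side of a gap of 4 bases, the layout that LXR with its partner RXR binds. The match in Abca1 differed from it at 2 of 12 positions, and 7.21% of 32851 promoter windows of the same length held a match at least as close. The E-box was present in 6.02% of the windows. The SREBP motif TCACNCCAC, present in 1.05% of the windows, was not found in any member's window. RefSeq windows were matched for 6 of the 8 genes, 9 windows in all, and Abca1 was the member with an E-box in this stretch. Abcg1 and Scarb1 had no entry. Srebf2 had 1 window, which also held a repeat with 2 mismatches, and the other windows had 3 or 4. A match of letters is a description of the sequence, and binding was not measured here.

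The libraries held 71145068 to 104017800 reads on genes. By the study's methods each group had as many animals as libraries. The labels tie no library to an animal, so the p-values measure only the spread between these libraries, which may be technical. Control library 1 stood apart. It had 480 genes with 3 or fewer reads that had at least 100 normalized counts in each of the other libraries, whereas the other libraries had 0 to 14 such genes, and Nr1h3 was among the 480. Xist had 2.78 to 6.15 normalized counts in control and 439, 2492 and 773 in Bmal1;CKO libraries 4 to 6. The Y-linked gene Ddx3y had 1060 to 1396 in control and 108, 0 and 381 in Bmal1;CKO libraries 4 to 6, so libraries 4 and 6 held reads of both, and sex and genotype cannot be told apart. The deleted gene, listed as Arntl, had 1700, 3489 and 2928 normalized counts in control libraries 1 to 3 and 1779, 2747 and 2415 in Bmal1;CKO libraries 4 to 6. Since each gene has 1 value in the table and the floxed exon was not analysed here on its own, Arntl did not check the labels. The 14 endothelial markers were all present with at least 10 reads in every library, and so were all 12 markers of microglia and macrophages. The median microglial marker lay at 59678 to 173183 normalized counts, between 8.00 and 31.9 times the endothelial median of the same library. These marker counts were not divided by exon length, so the ratio compares reads and not transcript levels. The values of the members are those of the sorted material, markers of other cells included, and were not assigned to VECs. In bulk samples such as these, fewer cells of a type and less RNA per cell cannot be told apart.

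Apoe was the most abundant of the tested genes. Per kilobase of exon it had a mean of 4471521 normalized counts over the 6 libraries, rank 1 of 20437 tested genes with an exon length, and 1206 times the level of Nr1h2, the next member. It took 15.5%, 5.65% and 5.34% of the reads on genes in control libraries 1 to 3 and 13.5%, 13.8% and 9.49% in Bmal1;CKO libraries 4 to 6. The Wilson 95% intervals of these shares reached at most 0.00793 percentage points to either side, for counting error only, so depth did not limit them. These shares leave out mitochondrial transcripts, since the 37 mitochondrial genes of the table carried 0 reads. The mean share was 8.82% ± 5.75 in control and 12.2% ± 2.39 in Bmal1;CKO (SD, n = 3 each), a difference of 3.43 percentage points that was smaller than the control SD (two-sided exact permutation test, p = 0.4, where the smallest possible p is 0.1).

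Apoe (ENSMUSG00000002985) spans bases 19696109 to 19699188 of chromosome 7 in GRCm38, on the minus strand. Its normalized counts were 16583753, 4210179 and 3972116 in control libraries 1 to 3 and 13472923, 11813724 and 7307983 in Bmal1;CKO libraries 4 to 6. Control library 1 was the highest of all 6 and the other 2 controls were the lowest, so the groups overlapped. The means were 8255349 ± 7213591 in control and 10864877 ± 3190119 in Bmal1;CKO (SD, n = 3 each). The log2 fold change, given throughout as Bmal1;CKO minus control on the log2(normalized count + 1) scale, was 0.69 with a 95% interval from -2.70 to 4.08 (limma-trend, adjusted p = 0.931). It was 0.40 with edgeR and with DESeq2, 1.36 without control library 1, 0.37 without control library 2 and 0.33 without control library 3. The interval was narrower, from -0.97 to 2.34, when the variance was not made to follow the mean, and Apoe was still not called (limma, adjusted p = 0.905).

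**Figure D1:**
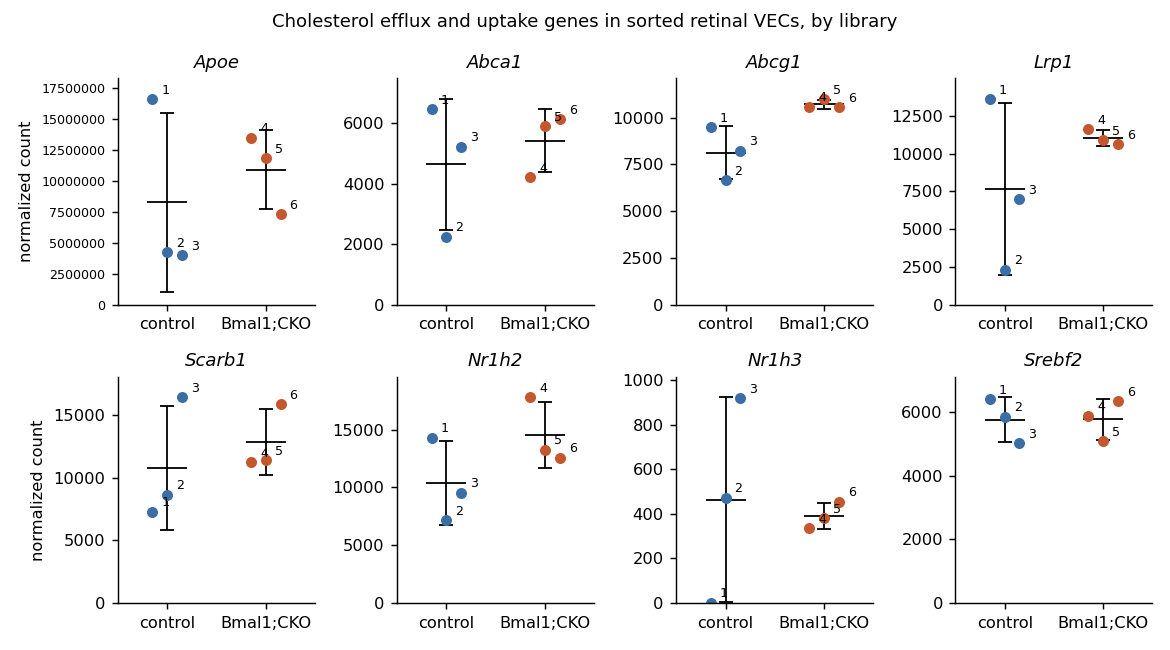
Normalized counts of the 8 genes (vertical axes from 0) in 3 control libraries (blue, 1 to 3) and 3 Bmal1;CKO libraries (orange, 4 to 6), with the mean and SD of each group in black. Abcg1 is the gene whose groups do not overlap, and the control SD exceeds the Bmal1;CKO SD for all 8 genes.

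The level of Apoe went with that of the microglial markers from library to library. The 12 microglial markers summed to 1621860 to 4683203 normalized counts in control and 2307710 to 4594145 in Bmal1;CKO, with none at 0. Of these, 11 had a higher and 1 a lower mean log2 value in Bmal1;CKO. Their median log2 fold change was 0.41, and control library 1 and Bmal1;CKO library 4 had the highest sums. The ratio of Apoe to C1qb, a complement gene of microglia, stayed between 6.07 and 10.3, a range of 1.69-fold, while Apoe itself ranged 4.18-fold. Set against the microglial median of its library, Apoe differed between the genotypes by 0.14 on the log2 scale, and the SD over the 6 libraries was 0.49 compared with 0.88 for Apoe alone. Set against the endothelial median, the difference was 1.17, with an SD of 1.04. All 14 endothelial markers had negative log2 fold changes, with a median of -0.50, and summed to 215582 to 404077 in control and 131463 to 276232 in Bmal1;CKO. The 6 tested markers of Müller glia, the other main source of APOE in the retina, all had positive log2 fold changes with a median of 0.43. They were far less abundant, at 36305 to 51346 in sum, and Aqp4 was at 0 in some libraries. Among markers of other cell types the medians were 0.34 for astrocytes, -0.21 for rods and -1.0 for erythroid cells. The 9 rod markers summed to 568798 to 657486 normalized counts in control and 426401 to 699849 in Bmal1;CKO, above the endothelial sum of each library. Of the 4 tested astrocyte markers 2 were higher and 2 lower. The astrocyte markers summed to 520 to 6168 normalized counts in control and 1355 to 2498 in Bmal1;CKO. The 7 pericyte markers summed to 2365 to 48808 normalized counts in control and 4348 to 8900 in Bmal1;CKO, and their ratios of mean normalized counts, Bmal1;CKO over control, were all under 1 (0.102 to 0.624). Their median log2 fold change had the opposite sign, at 1.16, and the median pericyte marker was at 7.38 normalized counts in control library 1. The part of any of these cells in the Apoe values was not tested.

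**Figure D2:**
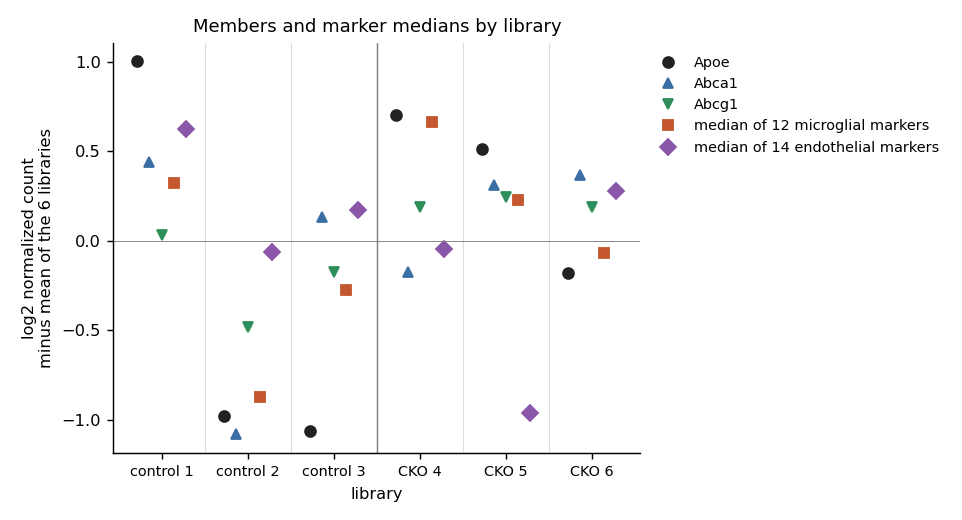
Apoe, Abca1, Abcg1 and the medians of 12 microglial and 14 endothelial markers in each library, as the log2 normalized count minus the mean of the 6 libraries (vertical axis). Apoe and the microglial median are both high in control library 1 and Bmal1;CKO library 4 and both low in control libraries 2 and 3, whereas the endothelial median is lowest in Bmal1;CKO library 5.

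The neighbours of Apoe were read for a change over the whole locus. Within 50 kb on either side 8 genes are listed, of which 5 were tested. Their log2 fold changes ran from 0.08 for Nectin2 to 1.75 for Apoc4, all within error of 0 (limma-trend, adjusted p = 0.883 to 0.960). The value of Apoc4 (SE 1.65) came from few reads, 0 in control library 1 and 20 to 55 in the others, and the next highest was Apoc1 at 0.63. Apoc1, an apolipoprotein gene that LXR also switches on, had 6564, 1960 and 600.2 normalized counts in control libraries 1 to 3 and 4305, 2622 and 2535 in Bmal1;CKO libraries 4 to 6. It shared with Apoe its highest value in control library 1 and its lowest in control library 3. Apoe lies 93.5 Mb from Bmal1 on chromosome 7, and Nr1h2 lies 68.7 Mb from it on the same chromosome.

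Of the exporters, Abcg1 (ENSMUSG00000024030, chromosome 17, 31057675 to 31117988, plus strand) had 9485, 6644 and 8220 normalized counts in control libraries 1 to 3 and 10579, 10993 and 10552 in Bmal1;CKO libraries 4 to 6. Every Bmal1;CKO library lay above every control library, and it was the single member of the 8 of which this was true, where the share over all tested genes was 6.62%. No member lay lower in all Bmal1;CKO libraries, against 4.54% of all tested genes. The means were 8117 ± 1423 and 10708 ± 247 (SD, n = 3 each), and the log2 fold change was 0.41 (95% interval -0.12 to 0.95, limma-trend, adjusted p = 0.883; exact permutation test, p = 0.1, the smallest possible). With 1 library left out the log2 fold change stayed between 0.28 and 0.53. Its direction depended on the reference. Against the microglial median of each library it was -0.13 with overlapping groups, and against the endothelial median 0.90 with groups that did not overlap. The endothelial median was itself 7458 to 12022 normalized counts in control and 4004 to 9474 in Bmal1;CKO. The share of all tested genes without overlap on this reference was not counted.

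Abca1 (ENSMUSG00000015243, chromosome 4, 53030787 to 53159895, minus strand), whose promoter sequence with the E-box is given above, had 6456, 2249 and 5217 normalized counts in control libraries 1 to 3. The Bmal1;CKO libraries 4 to 6 had 4217, 5905 and 6126, so the groups overlapped and control library 2 was the lowest. The log2 fold change of 0.34 (95% interval -0.63 to 1.31, limma-trend, adjusted p = 0.895) turned to -0.12 without control library 2 and was 0.64 without control library 1 and 0.51 without Bmal1;CKO library 4. It was 0.22 with edgeR and with DESeq2. Against the microglial median it was -0.21 and against the endothelial median 0.82. The interval allowed a fold between 0.644 and 2.47. Abca1 spanned 2.87-fold from the lowest to the highest library and Abcg1 1.65-fold, and the difference between their responses was not tested.

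Of the receptors, Lrp1 (ENSMUSG00000040249, chromosome 10, 127538161 to 127621148, minus strand) had 13630, 2298 and 6994 normalized counts in control libraries 1 to 3 and 11633, 10879 and 10619 in Bmal1;CKO libraries 4 to 6. The 3 Bmal1;CKO libraries lay close together, between control library 1 and the other controls. The log2 fold change was 0.87 (95% interval -0.48 to 2.22, limma-trend, adjusted p = 0.883). It was 0.18 without control library 2 and 1.46 without control library 1, and the latter had an unadjusted p of 0.00854 (limma-trend, adjusted p = 0.477). With edgeR and with DESeq2 it was 0.53. Against the microglial median the difference was 0.32 and against the endothelial median 1.36.

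Scarb1 (ENSMUSG00000037936, chromosome 5, 125277087 to 125341094, minus strand) had 7293, 8645 and 16429 normalized counts in control libraries 1 to 3 and 11236, 11391 and 15897 in Bmal1;CKO libraries 4 to 6. The control libraries held both the lowest and the highest value. The log2 fold change was 0.32 (95% interval -0.49 to 1.14, limma-trend, adjusted p = 0.886). It was 0.089 without control library 1 and 0.67 without control library 3, where the unadjusted p was 0.0440 (limma-trend, adjusted p = 0.404). It was 0.21 without control library 2 and 0.16 without Bmal1;CKO library 6. Against the microglial median it was -0.22 and against the endothelial median 0.81, so the direction depended on the reference.

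Of the sterol sensors, Nr1h2 (ENSMUSG00000060601, chromosome 7, 44549616 to 44553951, minus strand) was the more abundant of the LXR genes. Per kilobase of exon it had a mean of 3707 normalized counts, compared with 170 for Nr1h3. Its normalized counts were 14302, 7175 and 9541 in control libraries 1 to 3 and 17785, 13249 and 12551 in Bmal1;CKO libraries 4 to 6. Control library 1 lay above 2 of the Bmal1;CKO libraries, and the other controls lay below all of them. The log2 fold change was 0.53 (95% interval -0.20 to 1.26, limma-trend, adjusted p = 0.883), or 0.79 without control library 1 (unadjusted p = 0.0228, limma-trend, adjusted p = 0.532) and 0.30 without control library 2. Nr1h2 kept a nearly fixed distance from the microglial median, with a difference between genotypes of -0.017 and an SD over the 6 libraries of 0.11, against 0.46 for Nr1h2 alone. Against the endothelial median it was higher by 1.02, with groups that did not overlap. Every member, with Nr1h3 set aside, had a positive difference on that reference, and the share of all tested genes without overlap there was not counted.

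Nr1h3 (ENSMUSG00000002108, chromosome 2, 91184061 to 91202834, minus strand) had 1.23, 471 and 919 normalized counts in control libraries 1 to 3 and 336, 379 and 455 in Bmal1;CKO libraries 4 to 6. The value of control library 1 was 1 read, and Bmal1;CKO library 4, the next lowest, was 273 times as high (95% counting interval 48.6 to 10835). The log2 fold change of 1.97 (95% interval -2.85 to 6.80, limma-trend, adjusted p = 0.886) rested on that library. Without it the value was -0.76, with both remaining controls above the 3 Bmal1;CKO libraries, and edgeR and DESeq2 on all 6 libraries gave -0.26 and -0.25. No direction is therefore given for Nr1h3. Its exons share 34 bases with Gm13783, which had at most 5.77 normalized counts.

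Srebf2 (ENSMUSG00000022463, chromosome 15, 82147181 to 82205379, plus strand) was the steadiest of the 8. It had 6426, 5865 and 5032 normalized counts in control libraries 1 to 3 and 5896, 5093 and 6351 in Bmal1;CKO libraries 4 to 6, a range of 1.28-fold. The means were 5774 ± 702 and 5780 ± 637 (SD, n = 3 each), and the log2 fold change was 0.0027 (95% interval -0.54 to 0.54, limma-trend, adjusted p = 0.999). A change of more than 1.46-fold up or below 0.688-fold lay outside that interval. Against the microglial median it was -0.55 and against the endothelial median 0.49.

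By limma-trend 0 of the 8 genes had an adjusted p under 0.05, as did 0% of all tested genes, and 0 of the 8 had an unadjusted p under 0.05, compared with 4.92% of all tested genes. The counts of members were also 0 on both thresholds with edgeR, DESeq2 and limma-voom. The median over all tested genes was 0.11, and -0.03 with edgeR. Relative to it the members other than Nr1h3, for which no direction is given, lay between -0.10 for Srebf2 and 0.77 for Lrp1. With edgeR their log2 fold changes ran from 0.0037 for Srebf2 to 0.53 for Lrp1.

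**Figure D3:**
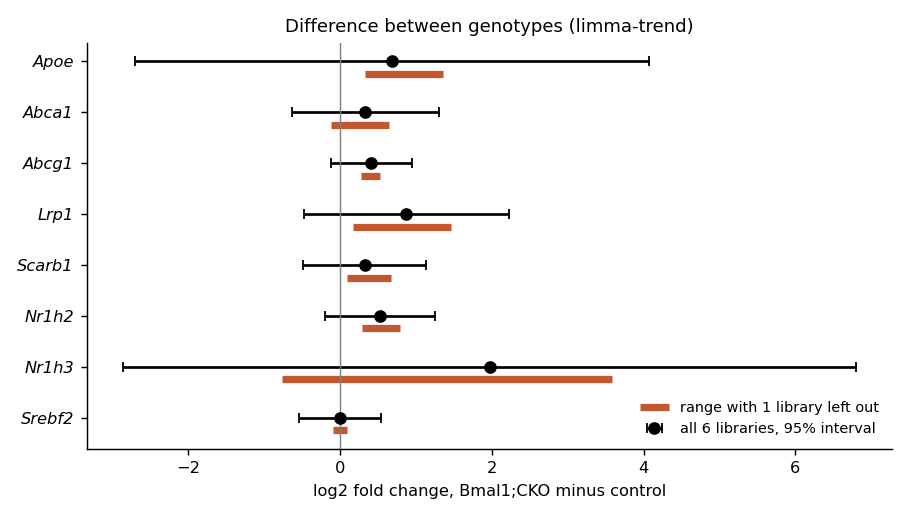
Log2 fold change (horizontal axis, Bmal1;CKO minus control) of each gene with its 95% interval by limma-trend over 6 libraries (black) and the range when 1 library is left out (orange bar). All 8 black intervals include 0, and the orange bars of Abca1, Nr1h3 and Srebf2 cross it.

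Ordered by their mean level per kilobase of exon, the members ran from Apoe through Nr1h2 (3707 normalized counts per kilobase), Scarb1 (1390), Abcg1 (1290), Srebf2 (804), Lrp1 (527) and Abca1 (485) to Nr1h3 (170). The libraries of Nr1h2, at 2139 to 5303, did not overlap with those of Scarb1, at 858 to 1933. Those of Abcg1, at 910 to 1506, overlapped with Scarb1 and lay above Srebf2, at 700 to 894. Lrp1 at 130 to 769 overlapped with Srebf2 above it and with Abca1 below it, which ranged from 217 to 623. Nr1h3 ranged from 0.489 to 365 and overlapped with Abca1. The spans of neighbours from Srebf2 downwards therefore overlapped. Compared within each library, Srebf2 lay above Lrp1 and Abca1 above Nr1h3 in every library, whereas Lrp1 and Abca1 changed order between libraries.

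The genes of the pathway were read in 7 lists, which also hold every member except Nr1h2. Counts of higher genes stand beside 56.6% of all tested genes with a positive log2 fold change. Of 12 tested LXR targets, 10 had a higher and 2 a lower mean log2 value in Bmal1;CKO. Abca1, Abcg1, Apoe and Nr1h3 are among the 10, and the higher value of Nr1h3 rested on control library 1. The median log2 fold change of the 12 was 0.36 beside 0.11 for all tested genes. By limma-trend 0 of the 12 were called at an adjusted or an unadjusted p under 0.05. The target of smallest p after Abcg1 was Srebf1, the gene of the lipogenic regulator SREBP1, with 7227, 5121 and 8030 normalized counts in control libraries 1 to 3 and 7814, 8008 and 10666 in Bmal1;CKO libraries 4 to 6. Its groups overlapped, and its log2 fold change was 0.39 (SE 0.27), or 0.20 without control library 2 and 0.25 without Bmal1;CKO library 6. Apoc2 and Scd1 did not pass the filter. Of 7 LXR partners and corepressors 5 were higher and 2 lower, with a median of 0.16. Rxrg, an RXR gene and thus a partner of LXR, had 1558, 956 and 1477 normalized counts in control and 2169, 2408 and 2039 in Bmal1;CKO, with groups that did not overlap. Its log2 fold change was 0.76 (SE 0.31), at an unadjusted p of 0.0432 that did not survive adjustment (limma-trend, adjusted p = 0.883).

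Cholesterol synthesis held the lowest log2 fold changes of the 7 lists. Of its 19 genes 13 had a higher and 6 a lower mean log2 value, with a median of 0.07, and 2 had an unadjusted p under 0.05, both lower in Bmal1;CKO, beside 4.92% of all tested genes in either direction. Sc5d, which acts late in the pathway as the lathosterol oxidase, had 2143, 1849 and 1095 normalized counts in control libraries 1 to 3. It had 713, 520 and 873 in Bmal1;CKO libraries 4 to 6, so that all 3 lay below the controls. Its log2 fold change was -1.25 (SE 0.40, unadjusted p = 0.0159, limma-trend, adjusted p = 0.883). Hmgcs1, the HMG-CoA synthase at the head of the pathway and a textbook target of SREBP2, had 2036, 3377 and 2593 normalized counts in control and 834, 1266 and 1822 in Bmal1;CKO. The groups did not overlap, and the log2 fold change was -1.07 (SE 0.38, unadjusted p = 0.0242, limma-trend, adjusted p = 0.883). Control library 1 also bore on this list, since Lss and Hsd17b7 had 3 or fewer reads there and at least 100 normalized counts in each other library, and without it the median of the list was -0.35.

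In SREBP processing 4 of the 7 genes were higher and 3 lower, and the median was 0.0027. Insig1, which holds the SREBPs in the endoplasmic reticulum and is itself induced by them, had 1174, 902 and 979 normalized counts in control and 578, 599 and 768 in Bmal1;CKO. All 3 Bmal1;CKO libraries lay below the controls, with a log2 fold change of -0.65 (SE 0.36, limma-trend, adjusted p = 0.883). Srebf2 itself, also in this list, had a log2 fold change of 0.0027, and the difference between it and Insig1, Hmgcs1 or Sc5d was not tested.

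Among 12 tested lipoprotein receptors and uptake genes 9 were higher and 3 lower, with a median of 0.53, and 0 had an unadjusted p under 0.05 by limma-trend. Lrp2, the gene of the receptor megalin, had 39.4, 4.64 and 45.0 normalized counts in control and 92.8, 91.6 and 93.1 in Bmal1;CKO. Its groups did not overlap, and its log2 fold change was 2.10 (SE 1.11), or 1.12 without control library 2, which held 5 reads of Lrp2. Lrpap1, the gene of the chaperone that guards LRP1 and its relatives on their way to the surface, had a log2 fold change of 0.43 (SE 0.26). Olr1 did not pass the filter. Of 14 lipid transporters and lipoprotein remodelling genes 10 were higher and 4 lower, with a median of 0.45. Apoe, Abca1 and Abcg1 are among the 10. Apod, which encodes a lipid-binding apolipoprotein of the lipocalin family, was the single gene of that list at an unadjusted p under 0.05. It had 3636, 2025 and 1926 normalized counts in control and 1443, 669 and 1363 in Bmal1;CKO, and its log2 fold change was -1.14 (SE 0.43, unadjusted p = 0.0295, limma-trend, adjusted p = 0.883). Apod thus lay lower in every Bmal1;CKO library, whereas the mean of Apoe was higher with overlapping groups. Lcat, with 0 reads in control library 1, had the highest log2 fold change of the list at 3.21 (SE 2.15). Apoa1 (1.31) and Lipg (1.83) were also counted as higher, with 0 and 2 reads in that library.

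Among the 11 genes of cholesterol storage and endolysosomal handling 6 were higher and 5 lower. The median was 0.082, with 0 genes at an unadjusted p under 0.05 by limma-trend. Cyp27a1, the sterol 27-hydroxylase that makes an oxysterol ligand of LXR, had 1780, 811 and 1510 normalized counts in control and 1802, 2588 and 2258 in Bmal1;CKO. Its log2 fold change was 0.76 (SE 0.38), or 0.42 without control library 2, and its groups did not overlap, although Bmal1;CKO library 4 exceeded control library 1 by little. Soat1, which esterifies cholesterol for storage, had a log2 fold change of -0.78 (SE 0.41) with overlapping groups, or -0.49 without control library 3. Over the 77 tested genes of the 7 lists limma-trend called 0 at an adjusted p under 0.05. At an unadjusted p under 0.05 there were 4 (5.19%), beside 4.92% of all tested genes. The groups did not overlap for 6 higher (7.79%) and 4 lower (5.19%) genes, beside 6.62% and 4.54% of all tested genes, so these shares lay near the background.

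**Figure D4:**
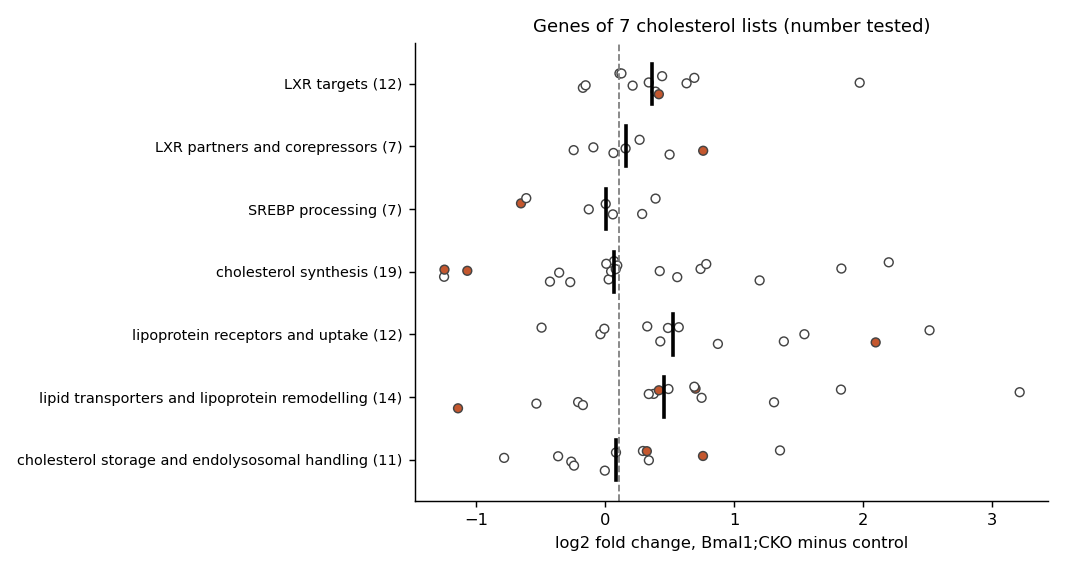
Log2 fold change (horizontal axis, Bmal1;CKO minus control) of every tested gene of the 7 lists, one circle per gene, filled where the 3 libraries of a group lie wholly above or below those of the other group. Black bars are list medians, from 0.0027 to 0.53, and the dashed line is the median of all tested genes at 0.11.

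The genes whose profile over the 6 libraries was most like that of a member were sought among 12057 protein-coding genes that had 10 or more reads in all 6 libraries, by the root-mean-square difference of centred log2 values. For Apoe they were Nfkbia at 0.10, Nupr1 at 0.10 and Cebpb at 0.18, beside 0.80 for the spread of Apoe about its own mean. Nfkbia had 73870 normalized counts in control library 1, 19475 and 17426 in the other controls and 64164, 60571 and 30352 in Bmal1;CKO libraries 4 to 6. For Abca1 they were Icosl (0.08), Mertk (0.11) and Fkbp15 (0.12), and for Abcg1 they were Prkcd (0.04), Wdr45 (0.05) and Thap11 (0.07). The closest genes were Csf3r (0.09) for Lrp1, Man2c1 (0.05) for Scarb1, Actb (0.06) for Nr1h2, Lhfp (0.32) for Nr1h3 and Lilra5 (0.08) for Srebf2. No member of the marker lists was among the 3 closest genes of any member. Each profile has 6 points from the same libraries, so likeness describes these libraries.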

How the data were processed

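RNA was measured in cells FAC-sorted as VECs, in 3 control and 3 Bmal1;CKO libraries. It was amplified with Smart v4 and prepared with Nextera XT, which does not mark strand. The submitters' processing notes and the paper name FastQC, Trimmomatic, Bowtie to mm10 (GRCm38), featureCounts and DESeq2. The Bowtie version and the strand setting are not given in the sources used here. The authors deposited a signal for each gene and library, here called the normalized count, which is the read count after division by the library's DESeq2 size factor. Multiplying by size factors of 0.711 to 1.40 gave whole reads for 100% of values within 0.05 of a whole number. A fold change and p-value per gene from the authors' own comparison are also in the table and were not used. Columns name the genotype only, so each was used as a replicate of its genotype.

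Groups were compared with limma-trend (limma 3.58.1, R 4.3.3) on log2(normalized count + 1), genotype as the only term, with Benjamini-Hochberg adjustment over 20459 genes. For single values exact permutation tests were used. Alternatives were edgeR 4.0.16, DESeq2 1.42.0 and limma-voom on the recovered reads, other pseudocounts, scalings and filters, each library left out and, chosen after seeing the data, limma without the trend. Exon lengths came from GENCODE M21 (GRCm38), whose coordinates equalled the table's for 54821 of 55141 shared genes, and promoters from RefSeq.

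The members, the 7 pathway lists and the 7 marker lists were chosen with earlier results of these data known. Named genes are the members, in each list the genes at an adjusted p under 0.05 or otherwise the 2 of smallest p, and for each member the 3 protein-coding genes of most similar profile. Some genes that this rule picks are not reported here. Intervals of single libraries cover counting error only, because RNA was amplified before sequencing.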

Additional observations from a re-analysis of the deposited data

How the results depend on the processing

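Over 17 alternatives, 126 of 135 log2 fold changes of the members kept their direction and 0 reached an adjusted p under 0.05 (lowest 0.404, limma-trend, Scarb1 without control library 3). The other 9 turned. Nr1h3 was -0.26 with edgeR and TMM scaling, -0.25 with edgeR and DESeq2 size factors and -0.25 with DESeq2, and Srebf2 was -0.048 with total-read scaling. Nr1h3 and Lrp2 did not pass the filter of 10 or more reads in all libraries. With 1 library left out, the log2 fold change ranged from 0.33 to 1.36 for Apoe, -0.12 to 0.64 for Abca1, 0.28 to 0.53 for Abcg1, 0.18 to 1.46 for Lrp1, 0.089 to 0.67 for Scarb1, 0.30 to 0.79 for Nr1h2, -0.76 to 3.58 for Nr1h3, -0.093 to 0.091 for Srebf2 and -0.49 to 0.029 for Arntl (Bmal1). The list medians then ranged from 0.24 to 0.41 for LXR targets, -0.062 to 0.30 for LXR partners and corepressors, -0.14 to 0.091 for SREBP processing, -0.35 to 0.21 for cholesterol synthesis, 0.18 to 0.92 for receptors and uptake, 0.24 to 0.60 for transporters and remodelling and -0.11 to 0.16 for storage and handling. With edgeR they were 0.15 for LXR targets, 0.28 for receptors and uptake, -0.0040 for SREBP processing, -0.043 for cholesterol synthesis and 0.024 for storage and handling. The Apoe share differed by 1.69 to 6.74 percentage points.

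Over all genes, limma-trend called 0 at FDR < 0.05 and 1007 at an unadjusted p under 0.05. DESeq2 called 67, limma without the trend 61, and total-read scaling, a filter of any read and one of 10 or more reads in all libraries 1 each. With 1 library left out the counts were 0 to 6 and 444 to 2444. The cause of these differences was not tested. The share of higher genes among those at an unadjusted p under 0.05 was 64.3%, 50.1% with edgeR, 44.0% with DESeq2 and 47.6% with the filter of 10 or more reads in all libraries. The 11 genes picked from the lists all kept their direction under every alternative fitted, and 0 reached an adjusted p under 0.05. They were picked by their p in these same libraries, so the kept direction was no independent check. No paired analysis was possible because the columns carry a genotype and a running number that cannot be matched to the labels' replicate numbers. With 3 libraries a group, folds inside the intervals given cannot be told from no change.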
